A study of Mus musculus with 67 samples.

Results

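The proteasome genes described here are the 36 protein-coding mouse genes whose symbols carry the stems Psma, Psmb, Psmc or Psmd and a number, out of 35539 genes in the tables. Of 44 symbols with these stems, 4 pseudogenes were left out, and so were Psmb8, Psmb9, Psmb10 and Psmb11, which encode the exchangeable beta subunits of the immunoproteasome and the thymoproteasome. The members were chosen by their symbols, with earlier results of these data known. They hold 8 genes of the alpha ring and 7 of the beta ring of the 20S core, 6 ATPase genes and 11 non-ATPase genes of the 19S cap, and 4 genes that share the symbol pattern without encoding a subunit of the mature particle. Those 4 are Psmd5, Psmd9 and Psmd10, which encode chaperones of 19S base assembly, and Psmc3ip, whose product acts with meiotic recombinases.

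The proteasome degrades proteins that carry ubiquitin chains. Stacked rings of alpha and beta subunits form the 20S core, in which Psmb5, Psmb6 and Psmb7 carry the chymotrypsin-like, caspase-like and trypsin-like active sites, and the 19S cap binds, deubiquitinates and unfolds the substrate. In lymphocytes the immunoproteasome subunits Psmb8, Psmb9 and Psmb10 can take the places of Psmb5, Psmb6 and Psmb7 and change which peptides are made for MHC class I. When proteasome activity falls short, the transcription factor Nrf1 (gene Nfe2l1) can raise the transcription of many subunit genes at once through antioxidant response elements.

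All cells came from young adult C57BL/6 mice that were either immunized with a MOG peptide to give experimental autoimmune encephalomyelitis (EAE), a T cell-driven disease of the central nervous system, or left naive. B cells or CD4+ T cells were purified from spleen and lymph node suspensions by negative selection, and each of the 4 sets (EAE B, naive B, EAE T, naive T) was split into 5 arms of 3 libraries, 60 libraries in all. For 18 h, B cells received beads with anti-IgM/G and T cells beads with anti-CD3, and the beads also carried either anti-Btla, an antibody against the inhibitory receptor Btla, or control Ig. Both kinds of beads were used with and without soluble IFNb, and the fifth arm was unstimulated. The sources used here give no IFNb dose and do not say whether unstimulated cells were cultured. They also do not say how many animals the numbered replicates stand for, so p-values measure the spread between these libraries.

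Levels are given as CPM, the estimated counts of a gene scaled to a common library total. A library held 6679518 to 61946822 counts in B cells and 7296271 to 34013407 counts in T cells. Summed B cell markers lay between 3533 and 6587 CPM in B libraries, and summed T cell markers between 1367 and 2198 CPM in T libraries. The naive T libraries, though labelled CD4+, carried 501 to 1097 CPM of the CD8 genes Cd8a and Cd8b1, against 13.2 to 26.2 CPM in EAE T libraries. Mitochondrially encoded transcripts took 3.78 to 5.41% of counts in B libraries and 1.27 to 10.2% in T libraries. In EAE B cells, replicate 1 of the anti-Btla, control Ig and unstimulated arms had immunoproteasome sums (Psmb8, Psmb9 and Psmb10) of 279, 285 and 188 CPM, against 121 to 153 CPM in replicates 2 and 3 of those arms. What these differences contribute to the results was not tested. In bulk RNA, fewer cells of a kind and less RNA per cell cannot be told apart.

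The promoters of 5 members are shown because they stand for the patterns of letters found and for the responses described further on. Psmb5 and Psmb6 encode active-site subunits, Psma5 had the largest changes in B cells, Psmd14 (the 19S deubiquitinase) the largest rise in naive T cells, and Psmd9 belongs to the chaperones that moved little. Each runs 5′ to 3′ from 250 bases before to 50 after a RefSeq transcription start (GRCm38.p6), with the matched letters in capitals. The letters searched on both strands were TGACNNNGC (or GCNNNGTCA, the core of an antioxidant response element), CACGTG (an E-box), CCAAT (or ATTGG) and CTTCCG (or CGGAAG, an Ets core, which was added after the sequences had been seen). Matches may overlap, as the CCAATTGG of Psmd14 does with itself.
Psmb5, chr14:54617946-54618245, minus strand: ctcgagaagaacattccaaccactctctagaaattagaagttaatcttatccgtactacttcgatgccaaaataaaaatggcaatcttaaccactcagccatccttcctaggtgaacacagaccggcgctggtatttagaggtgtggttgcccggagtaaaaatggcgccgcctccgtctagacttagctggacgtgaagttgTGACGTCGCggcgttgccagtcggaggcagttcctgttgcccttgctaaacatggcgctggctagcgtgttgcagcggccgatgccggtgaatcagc
Psmb6, chr11:70525107-70525406, plus strand: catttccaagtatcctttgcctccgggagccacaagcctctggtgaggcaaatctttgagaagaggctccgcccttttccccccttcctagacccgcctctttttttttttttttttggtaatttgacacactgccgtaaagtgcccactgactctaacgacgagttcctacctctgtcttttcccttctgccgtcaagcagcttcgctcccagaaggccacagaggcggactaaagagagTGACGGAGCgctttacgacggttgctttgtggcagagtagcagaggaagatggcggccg
Psmd9, chr5:123227940-123228239, plus strand: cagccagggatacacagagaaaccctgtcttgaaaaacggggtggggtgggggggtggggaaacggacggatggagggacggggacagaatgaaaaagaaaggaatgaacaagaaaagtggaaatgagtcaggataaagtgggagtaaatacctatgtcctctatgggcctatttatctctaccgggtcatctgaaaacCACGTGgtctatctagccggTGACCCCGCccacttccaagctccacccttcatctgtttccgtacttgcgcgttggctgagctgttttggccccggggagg
Psma5, chr3:108256676-108256975, plus strand: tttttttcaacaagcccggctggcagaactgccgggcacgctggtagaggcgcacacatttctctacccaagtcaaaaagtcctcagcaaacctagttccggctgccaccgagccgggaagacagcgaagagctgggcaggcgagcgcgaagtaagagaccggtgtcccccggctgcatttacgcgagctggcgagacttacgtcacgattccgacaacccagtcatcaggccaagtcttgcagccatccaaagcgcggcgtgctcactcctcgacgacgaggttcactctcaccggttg
Psmd14, chr2:61711444-61711743, plus strand: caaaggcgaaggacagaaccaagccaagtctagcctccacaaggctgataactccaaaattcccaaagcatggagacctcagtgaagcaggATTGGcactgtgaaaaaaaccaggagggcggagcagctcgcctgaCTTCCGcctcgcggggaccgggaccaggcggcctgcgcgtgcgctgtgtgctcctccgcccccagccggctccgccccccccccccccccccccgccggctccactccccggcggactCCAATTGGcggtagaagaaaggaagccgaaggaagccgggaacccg

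In Psmb5 the matched TGACNNNGC began at position -47 from the start and in Psmb6 at -9, while Psmd9 had it at -31 and an E-box at -51. The Psma5 window held none of the 4 patterns. RefSeq gave 31 promoters for 29 of the 36 members, with no entry for Psma8, Psmb1, Psmb2, Psmb7, Psmc3, Psmd3 and Psmd7. TGACNNNGC was found in 5 member promoters (Psmb5, Psmb6, Psmc6, Psmd12 and Psmd9), which is 16.1%, against 12.4% of 32851 promoters of all genes. CACGTG was in 2 (6.45%, against 7.15%) and CCAAT in 12 (38.7%, against 37.4%). CTTCCG was in 19 member promoters (61.3%), against 16.9% of all promoters and 27.8% of the promoters of genes tested in naive B cells. In those tested genes TGACNNNGC, CACGTG and CCAAT were in 13.7, 9.24 and 37.9% of promoters. CTTCCG was added after these sequences had been seen, so its excess is no independent result. A match is a stretch of letters and no evidence of binding.

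Stimulation with control Ig beads raised the proteasome genes together in every set, and anti-Btla beads left them lower in B cells but not detectably so in T cells. The summed level of the 36 genes was 2720 ± 282 CPM in EAE B cells with anti-Btla beads, 4037 ± 431 CPM with control Ig beads and 2486 ± 176 CPM without stimulation (SD, n = 3 each). In naive B cells the same sums were 2642 ± 27.5, 3894 ± 113 and 2409 ± 76.2 CPM. In both B cell sets, every control Ig library therefore lay above every anti-Btla and every unstimulated library. EAE T cells summed to 3835 ± 200.5 CPM with anti-Btla beads, 4131 ± 95.9 CPM with control Ig beads and 1605 ± 109 CPM unstimulated. Naive T cells summed to 2750 ± 107, 2738 ± 43.7 and 1729 ± 30.3 CPM in those arms. The anti-Btla and control Ig libraries overlapped in naive T cells, whereas in EAE T cells the highest anti-Btla library (4046 CPM) lay just under the lowest control Ig library (4069 CPM).

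**Figure D1:**
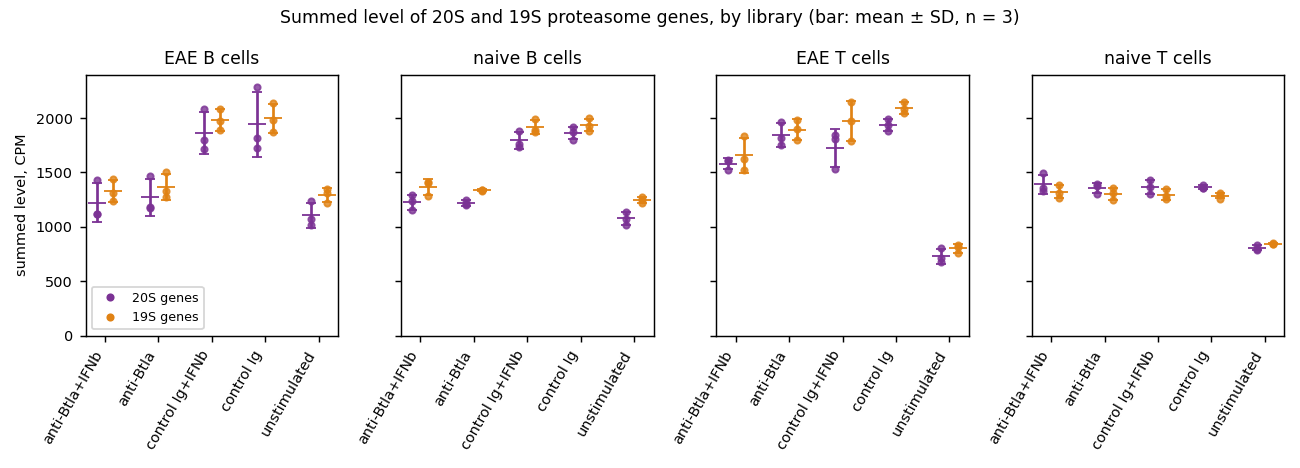
Summed CPM of the 20S core genes (purple) and of the 19S cap genes (orange) in the 5 arms of each set, with points for libraries and bars for mean ± SD (n = 3). In B cells the control Ig arms stand above the anti-Btla and unstimulated arms, and in T cells all stimulated arms stand above the unstimulated one.

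The sums of the core and of the cap genes ranked the arms given here in the same order, and the cap sum was the higher in each. These sums cover different genes without correction for length, so they give no ratio of core to cap. The 20S genes summed to 1270, 1942 and 1107 CPM in EAE B cells (anti-Btla, control Ig, unstimulated), and the 19S genes to 1367, 1997 and 1292 CPM. In EAE T cells the 20S genes gave 1844, 1937 and 729.5 CPM in those arms, and the 19S genes 1894, 2093 and 804.2 CPM. Levels compared between genes need a length-corrected scale, and on the deposited TPM scale the 31 subunit genes other than Psma8 were not equal. Their median lay between 42.1 and 122 TPM over the 20 groups, and the highest gene exceeded the lowest 6.44 to 13.6 times. Psmd3, a scaffold subunit of the 19S lid, was the lowest in all groups but EAE T control Ig + IFNb, where Psmb1 was, and either Psmb4 or Psma3 was the highest. Psma8, a testis-type alpha subunit, reached at most 0.648 CPM and failed the filter on low counts, so 35 members were tested.

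The first comparison asked how antigen receptor stimulation on control Ig beads changed these genes relative to unstimulated cells. Psma5, the alpha5 subunit of the core, had 178, 131 and 124 CPM in EAE B control Ig libraries, against 61.0, 56.8 and 60.5 CPM in unstimulated ones. In naive B cells it had 144, 149 and 136 CPM with control Ig, against 60.1, 70.0 and 62.0 CPM. The groups did not overlap, and the log2 change was 1.39 ± 0.09 (SE) in EAE B cells and 1.27 ± 0.07 in naive B cells (edgeR quasi-likelihood test, Benjamini-Hochberg adjusted p = 9.11e-08 and 1.55e-09). In EAE T cells Psma5 had 189, 174 and 171 CPM with control Ig and 39.8, 58.7 and 43.3 CPM unstimulated, a log2 change of 1.96 ± 0.12 (adjusted p = 1e-09). In naive T cells it had 98.1, 95.6 and 96.8 CPM against 47.5, 51.3 and 47.2 CPM, a change of 1.06 ± 0.07 (adjusted p = 2.57e-10).

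Of the 35 genes tested, 33 rose in EAE B cells, 33 in naive B cells, 34 in EAE T cells and 32 in naive T cells, and none fell in any set. Over all genes, 21.1, 22.7, 31.7 and 27.1% were called higher in these sets in that order. The members' median log2 change was 0.82, 0.80, 1.46 and 0.72, beside medians of -0.05, -0.02, -0.07 and -0.02 for all genes. All 31 tested subunit genes rose in each set, with changes of 0.49 to 1.39 in EAE B cells, 0.47 to 1.27 in naive B cells, 0.69 to 1.96 in EAE T cells and 0.36 to 1.28 in naive T cells. Control Ig and unstimulated libraries did not overlap for 32, 33, 34 and 32 members, where 15.4, 18.7, 31 and 25.4% of all genes were higher without overlap. With library totals as the scale 33 members rose in each B cell set, while all genes split into 2523 higher and 4950 lower in EAE B cells (3577 and 3186 with TMM) and 2834 and 4297 in naive B cells (3775 and 2900), and the median of all genes shifted by -0.13 and -0.11.

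By role, the median of the alpha ring was 1.03, 0.92, 1.46 and 0.90 in EAE B, naive B, EAE T and naive T cells, and that of the beta ring 0.83, 0.93, 1.49 and 0.83. The ATPases, which unfold the substrate, had medians of 0.79, 0.78, 1.28 and 0.48, and the non-ATPase subunits 0.62, 0.67, 1.5 and 0.71. Psmd14 stood at the top of naive T cells with 88.4, 94.0 and 91.1 CPM in control Ig libraries, against 35.6, 40.8 and 43.1 CPM unstimulated (1.28 ± 0.06, adjusted p = 8.53e-12). Psmd7, its partner in the lid, had 130, 128 and 133 CPM in EAE T control Ig libraries and 34.1, 40.5 and 30.9 CPM in unstimulated ones (log2 change 1.94, adjusted p = 9.47e-10). Psma1, another alpha subunit, was second in B cells, with 159, 117 and 120 CPM in EAE B control Ig libraries against 74.0, 58.3 and 66.9 CPM unstimulated (1.12 ± 0.10), and 128, 144 and 138 CPM against 65.3, 79.6 and 71.6 CPM in naive B cells (1.03 ± 0.07). Psma7 was second in naive T cells, with 102, 105 and 107 CPM against 45.3, 50.6 and 50.6 CPM (1.18 ± 0.07). The active-site subunits all rose without overlap. Psmb5 changed by 0.83, 0.93, 1.71 and 0.98 in EAE B, naive B, EAE T and naive T cells, Psmb6 by 0.67, 0.67, 1.14 and 0.94, and Psmb7 by 0.89, 0.90, 1.67 and 1.00. The ATPase Psmc2 had log2 changes of 0.49, 0.47, 0.69 and 0.42 in the 4 sets over all its transcripts, and 0.74, 0.75, 1.28 and 0.78 on protein-coding transcripts alone.

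**Figure D2:**
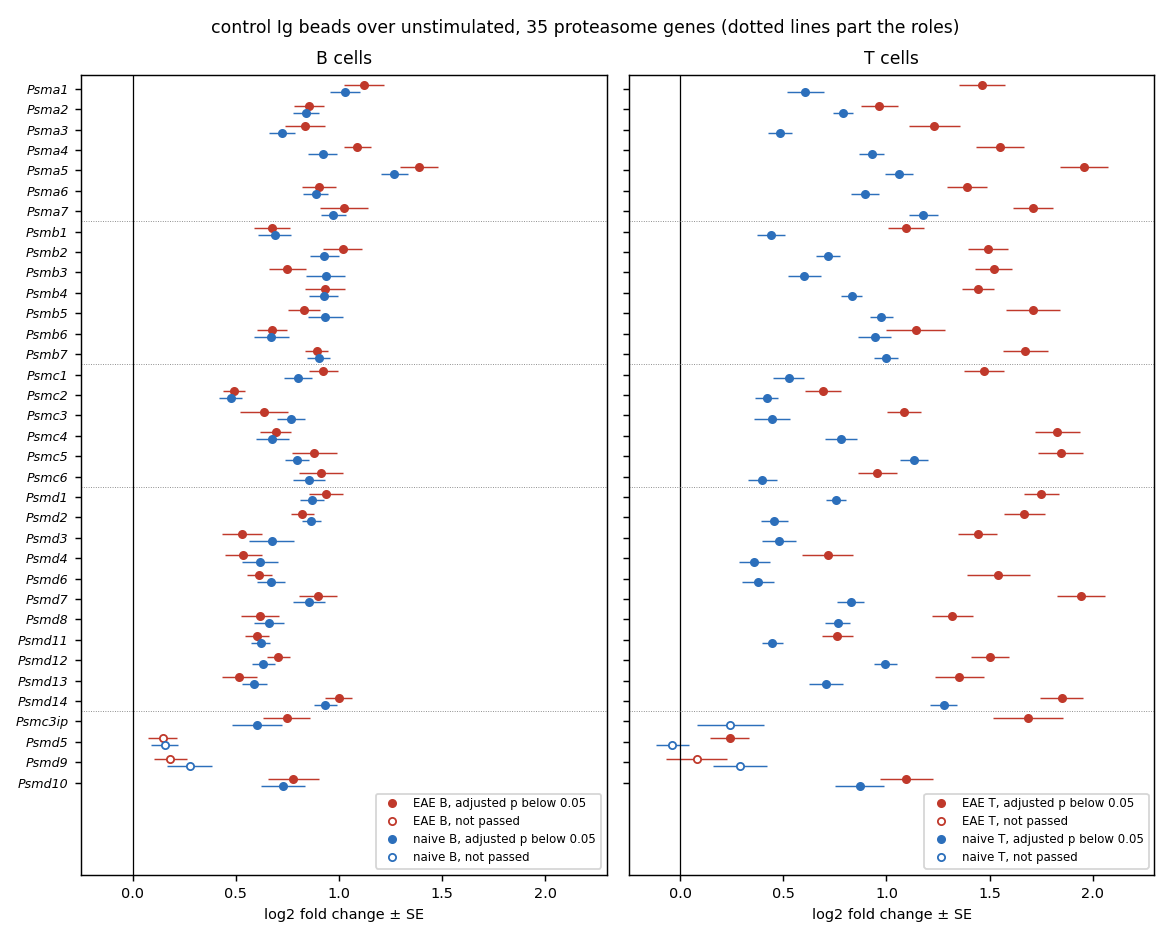
Log2 change ± SE of each tested member with control Ig beads over unstimulated cells, in B cells (left) and T cells (right), EAE in red and naive in blue, filled where the adjusted p was under 0.05. Nearly all points lie right of 0, and EAE T cells reach the largest values, up to 1.96 for Psma5.

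The genes that encode no subunit followed less evenly. Psmd10 (gankyrin) rose in all sets, by 0.78, 0.73, 1.1 and 0.87. Psmd9 was not called in any set, with log2 changes of 0.18, 0.28, 0.08 and 0.29, although leaving out EAE B unstimulated replicate 2 (0.25), naive B unstimulated replicate 2 (0.36), naive B control Ig replicate 3 (0.37) or naive T unstimulated replicate 2 (0.45) made it pass, as did counting protein-coding transcripts alone in naive T cells (0.76, adjusted p = 0.0134). Psmd5 passed only in EAE T cells (0.24, adjusted p = 0.0377) and lost that call without EAE T unstimulated replicate 1 (0.23) or 3 (0.22) and on protein-coding transcripts alone (0.13, adjusted p = 0.32). Psmd5 gave 0.14, 0.15 and -0.04 in EAE B, naive B and naive T cells. Psmc3ip rose in EAE B (0.75), naive B (0.60) and EAE T cells (1.69) and had a change of 0.24 in naive T cells that was not called.

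The central comparison set anti-Btla beads against control Ig beads under the same receptor stimulus. Psma5 had 96.8, 66.8 and 73.5 CPM in EAE B anti-Btla libraries, against the 178, 131 and 124 CPM of the control Ig libraries given before. Naive B anti-Btla libraries had 81.3, 77.3 and 82.6 CPM, against 144, 149 and 136 CPM. The arms did not overlap in either set, and Psma5 fell by 0.94 ± 0.09 on the log2 scale in EAE B cells and by 0.92 ± 0.06 in naive B cells (edgeR, adjusted p = 5.97e-06 and 8.92e-08). In EAE T cells its anti-Btla libraries had 182, 152 and 153 CPM, against 189, 174 and 171 CPM with control Ig, and in naive T cells 93.9, 89.6 and 94.8 CPM, against 98.1, 95.6 and 96.8 CPM. Those log2 changes, -0.10 ± 0.11 and -0.09 ± 0.06, did not pass (adjusted p = 0.837 and 0.778).

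The catalytic subunits moved in the same way. Psmb5 had 58.3, 38.6 and 40.9 CPM in EAE B anti-Btla libraries, against 92.5, 72.1 and 78.9 CPM with control Ig. In naive B cells it had 49.6, 43.5 and 49.3 CPM, against 78.8, 89.4 and 73.7 CPM. Its log2 change was -0.90 ± 0.08 in EAE B and -0.84 ± 0.09 in naive B cells (adjusted p = 3.21e-06 and 2.59e-06), with no overlap between the arms. Psmb6 had 65.7, 53.3 and 49.4 CPM in EAE B anti-Btla libraries, against 88.8, 76.1 and 80.9 CPM, and 57.2, 55.2 and 59.8 CPM in naive B cells, against 83.8, 82.7 and 76.1 CPM. Psmb7 had 77.8, 69.9 and 74.0 CPM in EAE B cells, against 132, 106 and 110 CPM, and 77.8, 81.2 and 78.8 CPM in naive B cells, against 122, 128 and 120 CPM. Both fell without overlap, Psmb6 by 0.63 and 0.58 and Psmb7 by 0.72 and 0.73 in EAE B and naive B cells. In T cells Psmb5 stayed within its spread, with 98.6, 84.5 and 90.8 CPM in EAE T anti-Btla libraries against 92.5, 94.4 and 90.2 CPM, and 95.9, 94.2 and 82.6 CPM in naive T cells against 98.0, 95.3 and 90.4 CPM.

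**Figure D3:**
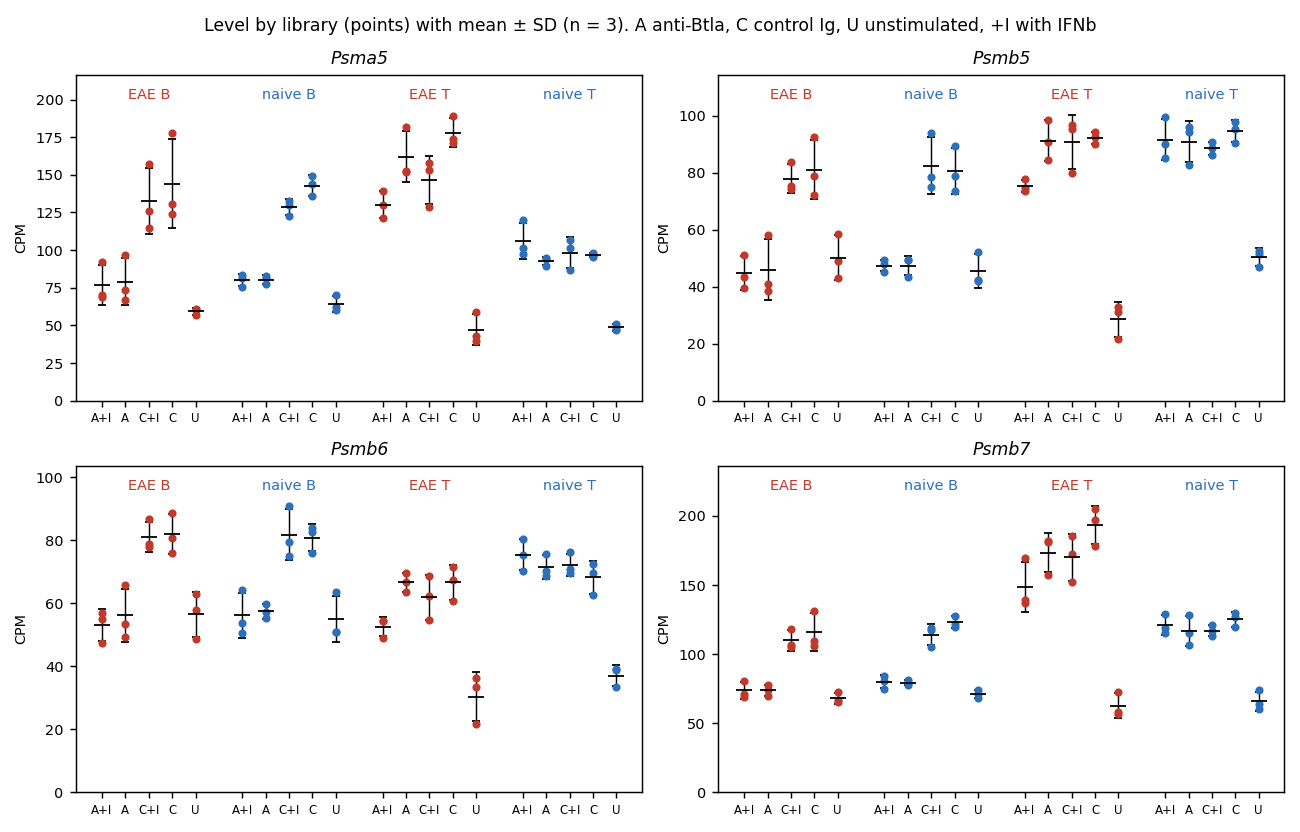
CPM of Psma5, Psmb5, Psmb6 and Psmb7 in every library of the 20 groups (A anti-Btla, C control Ig, U unstimulated, +I with IFNb), points for libraries and bars for mean ± SD (n = 3). In both B cell sets the anti-Btla libraries of all 4 genes lie under the control Ig libraries, and in T cells they lie close to them.

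Over the whole list, 34 of 35 tested members fell with anti-Btla in EAE B cells and all 35 in naive B cells, where 16.5 and 19.7% of all genes were called lower. No member rose. The members' median log2 change was -0.64 in EAE B and -0.62 in naive B cells, beside 0.04 and 0.01 over all genes. The range ran from -0.94 to -0.20 and from -0.92 to -0.22. The arms did not overlap for 30 members in EAE B and 33 in naive B cells, against 14.4 and 17.3% of all genes lower without overlap. When library totals alone set the scale, 32 members fell in each set, while the split of all genes into higher and lower turned to 3267 against 2137 in EAE B cells (2315 against 2807 in the TMM fit) and to 3326 against 2469 in naive B cells (2172 against 3281).

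All 7 tested alpha genes, all 7 beta genes, all 6 ATPase genes and all 11 non-ATPase genes fell in both B cell sets. In EAE B cells their medians were -0.69, -0.71, -0.66 and -0.62, and in naive B cells -0.72, -0.73, -0.66 and -0.58. The 4 other genes had the smaller medians of -0.42 (3 fell) and -0.36 (4 fell). Psmd5 had 49.1, 53.1 and 47.1 CPM in naive B anti-Btla libraries, against 52.8, 52.6 and 58.4 CPM, so that the arms overlapped (log2 change -0.22, adjusted p = 0.014). Psmd9, the member not called in EAE B cells over all transcripts (-0.20, adjusted p = 0.0957) though called on protein-coding ones (-0.35, adjusted p = 0.0368), had -0.34 in naive B cells (adjusted p = 0.0271). Psmc3ip had -0.64 (adjusted p = 0.00148) in EAE B and -0.39 (adjusted p = 0.0214) in naive B cells. In naive B cells, the calls of Psmd5, Psmd9 and Psmc3ip were lost with library totals as the scale and when some single libraries were left out. These were anti-Btla replicate 1 (Psmd5 -0.21, Psmc3ip -0.32), 2 (Psmd9 -0.24, Psmc3ip -0.29) and 3 (Psmd5 -0.13, Psmd9 -0.34), and control Ig replicate 1 (Psmd5 -0.22, Psmd9 -0.29, Psmc3ip -0.32), 2 (Psmd9 -0.26) and 3 (Psmd5 -0.18). In EAE B cells, Psmd5 (-0.24) lost its call without anti-Btla replicate 1 (-0.20) or control Ig replicate 2 (-0.23), and without all libraries numbered 1 so did Psmd5 (-0.20) and Psmd10 (-0.61), whereas Psmd9 passed without anti-Btla replicate 1 (-0.30). On protein-coding transcripts alone Psmc3ip lost its calls with anti-Btla (-0.98 in EAE B and -0.27 in naive B cells), and likewise with control Ig beads in naive B (0.58) and EAE T cells (0.81). Psmd5 also lost its call with anti-Btla in naive B cells (-0.15, adjusted p = 0.148), and Psma3 in EAE B cells kept its call with a change of -0.42 in place of -0.69.

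**Figure D4:**
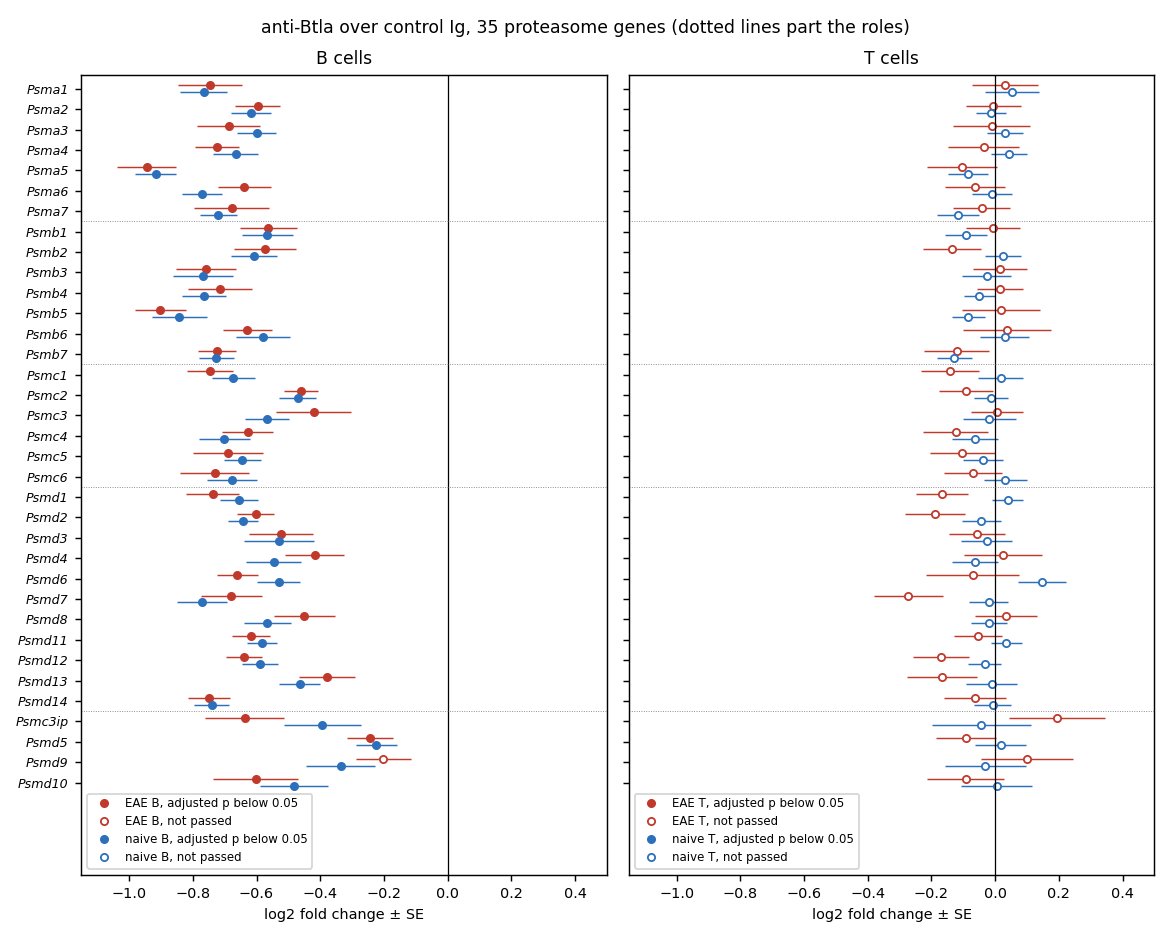
Log2 change ± SE of each tested member with anti-Btla over control Ig beads, in B cells (left) and T cells (right), EAE in red and naive in blue, filled where the adjusted p was under 0.05. In B cells the points run from -0.94 to -0.20, and in T cells they scatter about 0 with none filled.

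In T cells no member was called in either direction by edgeR or by DESeq2, in a fit where 0.0481% of all genes were called higher and 0.0206% lower in EAE T cells and 0.0% in naive T cells. At an unadjusted p under 0.05 there was 1 member in each set, against 1356 of 14561 genes in EAE T and 1249 of 15137 in naive T cells. The changes ran from -0.27 to 0.20 (SE 0.07 to 0.15) in EAE T cells and from -0.13 to 0.15 (SE 0.05 to 0.16) in naive T cells, with medians of -0.06 and -0.02. In EAE T cells 10 members were lower without overlap (7.6% of all genes), and in naive T cells 1 was lower and 2 were higher without overlap (3.71 and 6.51% of all genes). The difference between cell types was itself tested. The anti-Btla effect was lower in B than in T cells for 28 members in the EAE sets (7.53% of all genes, median difference -0.62), led by Psmb5 (-0.97, adjusted p = 0.000706) and Psma5 (-0.89, adjusted p = 0.00113). It was lower for 31 in the naive sets (9.61%, median -0.57), led by Psma5 (-0.79, adjusted p = 1.84e-06) and Psma1 (-0.78). For the EAE sets the count was 3 without the replicate block, 23 with DESeq2-type size factors in edgeR, 20 with library totals, and 18 without EAE B anti-Btla replicate 3. With library totals the split of all genes there was 768 higher against 516 lower (353 against 1243 in the TMM fit, 474 against 678 with those size factors), and the median of all genes shifted by 0.16. The effect did not differ detectably between EAE and naive animals in either cell type, where edgeR called 0 members in B and 0 in T cells (0 and 1 at an unadjusted p under 0.05) and DESeq2 none, beside 0.0% of all genes in B cells and 0.225% higher and 0.0251% lower in T cells. An unadjusted p under 0.05 was met by 518 of 17323 genes in B and 1618 of 15966 in T cells.

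Set against unstimulated cells, anti-Btla beads left part of the rise in B cells. In EAE B cells 6 members were higher than unstimulated (Psma4, Psma5, Psmb2, Psmd14, Psmd2 and Psma1), where 3.24% of all genes were called higher, and in naive B cells 9 were (3.65%), again with Psma5 (0.35 ± 0.07, adjusted p = 0.00323) and Psmb2 (0.32). The median change of the members was 0.17 in EAE B and 0.14 in naive B cells. These counts rest on single libraries. In EAE B cells the count was 0 without unstimulated replicate 1, 3 without unstimulated replicate 3, and 2 without anti-Btla replicate 1, 2 or 3, and it was 0 without all libraries numbered 1. With library totals it was 3, and all genes split into 426 higher and 678 lower (550 and 423 with TMM). In naive B cells it was 3 without unstimulated replicate 1 or 2 or anti-Btla replicate 1, 2 without unstimulated replicate 3, and 1 without anti-Btla replicate 3. DESeq2 called 9 in each set. In T cells 33 members in EAE and 32 in naive cells were higher with anti-Btla beads than unstimulated (32.1 and 27.5% of all genes), with medians of 1.36 and 0.72. These comparisons share their anti-Btla and unstimulated libraries with those above.

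IFNb added to the beads did not change any member by edgeR or DESeq2. With control Ig beads the members' median change with IFNb was -0.06 in EAE B, -0.04 in naive B, -0.07 in EAE T and -0.02 in naive T cells. At an unadjusted p under 0.05 there were 0, 4, 2 and 0 members, with smallest adjusted p values of 1, 1, 0.333 and 0.818. Over all genes, 400 of 16989, 607 of 16618, 1354 of 14561 and 926 of 15137 met that unadjusted p in the same order. The smallest p among members that were lower belonged to Psmb7 (-0.11) and Psmc1 (-0.12) in EAE B, Psma5 (-0.17) and Psmb7 (-0.14) in naive B, Psmd10 (-0.37) and Psmb1 (-0.19) in EAE T and Psmb5 (-0.11) and Psmb7 (-0.11) in naive T cells. The only set with any called gene was EAE T (0.158% of all genes higher, 0.0% in the others), and there 12 members were lower with IFNb without overlap, as were 11% of all genes. The immunoproteasome gene Psmb9 changed by 0.02, -0.06 and 0.01 with IFNb in EAE B, naive B and EAE T cells. Psme2, an IFN-inducible gene, changed by -0.10, -0.07 and -0.15, and neither gene was called. Whether IFNb was active in these cultures was not tested. The anti-Btla effect was also present with IFNb in B cells. There 33 members fell in EAE B cells (17.4% of all genes called lower, median -0.65, not Psmd5 and Psmd9) and 33 in naive B cells (17.6%, median -0.53, not Psmd9 and Psmd10). With library totals 33 fell in each set, while all genes split into 3090 higher and 2411 lower in EAE B cells (2308 and 2957 with TMM) and 2517 and 2450 in naive B cells (1987 and 2918). In T cells with IFNb none was called by edgeR or DESeq2 (0.0% of all genes lower in EAE T and 0.0132% in naive T cells), with medians of -0.18 in EAE T (12 at an unadjusted p under 0.05, smallest adjusted p = 0.33) and 0.04 in naive T cells. In EAE T cells 1416 of 14561 genes met that unadjusted p, a smaller share than among the members. Mitochondrial transcripts took 6.57 to 10.2% of counts in EAE T anti-Btla + IFNb libraries, against 5.71 to 7.40% with control Ig + IFNb. Their part in that difference was not tested. No member's anti-Btla effect differed by edgeR between arms with and without IFNb (0, 2, 2 and 2 members at an unadjusted p under 0.05 in EAE B, naive B, EAE T and naive T cells, none by DESeq2, and 0.0% of all genes called in each set). Over all genes, 374 of 16989, 567 of 16618, 565 of 14561 and 959 of 15137 met that unadjusted p in the same order.

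EAE and naive animals were then compared at rest and after stimulation. In B cells no member differed by edgeR, either unstimulated (median 0.07, 1 member at an unadjusted p under 0.05, smallest adjusted p = 0.635) or with control Ig beads (median 0.07, 1 member, smallest adjusted p = 0.885), and DESeq2 called no member. That unadjusted p was met by 1175 of 16248 genes unstimulated and 892 of 15901 with control Ig beads. Of all genes, 0.0246% were called in each direction in unstimulated B cells, and 0.0126% higher and 0.00629% lower with control Ig beads. Psma7 had the smallest p in both (0.24 ± 0.10 unstimulated and 0.32 ± 0.13 with control Ig). Unstimulated EAE T cells differed from naive T cells in 12 members, 6 higher (18.6% of all genes) and 6 lower (17%). In each direction this is about the share of all genes. Psma7 had 60.7, 69.5 and 61.9 CPM in EAE T, against 45.3, 50.6 and 50.6 CPM in naive T libraries (log2 change 0.47, adjusted p = 0.00453). Psmb1 had 40.0, 35.3 and 33.4 CPM, against 59.9, 62.6 and 61.6 CPM (-0.69, adjusted p = 0.000473), and Psmb5 gave -0.72 (adjusted p = 0.00538). Psmd1 (0.32, adjusted p = 0.0107) was no longer called without naive T unstimulated replicate 2 (0.30) or with protein-coding transcripts alone (0.04). With library totals as the scale 3 members were higher and 9 lower, while the split of all genes was 2176 against 3016 (2592 against 2371 in the TMM fit). The count of 12 was 6 without naive T unstimulated replicate 1 or 3 and 5 without replicate 2.

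With control Ig beads, 29 members were higher in EAE T than in naive T cells and none was lower, where 27.7% of all genes were called higher and 23.9% lower. The median log2 change was 0.63, and 29 members were higher without overlap (27.4% of all genes). Psmd1 (1.33 ± 0.06, adjusted p = 2.63e-07), the large scaffold of the 19S base, and Psmb2 (1.1 ± 0.06, adjusted p = 1.16e-06) led. Psmb1 was not called, with 77.3, 78.7 and 69.0 CPM in EAE T against 76.4, 82.3 and 79.0 CPM in naive T libraries, and Psmb6 (0.04), Psmb5 (0.05), Psmc2, Psmd4 and Psmd5 were not called either. The rise with control Ig beads over unstimulated cells was larger in EAE T than in naive T cells for 31 members (20.8% of all genes, median difference 0.71), with Psmd2 at 1.27 ± 0.13 (adjusted p = 1.43e-08) and Psmc3ip at 1.52, and not called for Psma2 (0.25), Psmb6 (0.26), Psmd9 and Psmd10. Psmc3ip-202, a retained-intron transcript, held 58.5% of the counts of Psmc3ip in EAE T control Ig libraries and 22.2% in unstimulated ones, and on protein-coding transcripts alone its change with control Ig beads was not called in either set (0.81 in EAE T and 0.21 in naive T cells, adjusted p = 0.161 and 0.535). In B cells the difference in rise between EAE and naive cells was called by edgeR for 0 members (0 at an unadjusted p under 0.05, 0 by DESeq2), where 0.0808% of all genes were called higher. That unadjusted p was met by 815 of 17323 genes. Beside these T cell results stand the CD8 transcripts, at 14.7 to 15.2 CPM in EAE T control Ig libraries against 597.5 to 752 CPM in naive T ones, and mitochondrial shares of 1.27 to 2.81% against 3.83 to 4.15%. Unstimulated EAE T libraries had 5.28 to 7.00% mitochondrial counts and 111 to 322 CPM of summed myeloid markers, against 4.55 to 4.82% and 13.9 to 18.5 CPM in naive T ones. The part of these transcripts in the T cell results was not tested.

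The rise itself also differed between cell types. In the EAE sets it was smaller in B than in T cells for 25 members (19.7% of all genes lower, median difference -0.55), led by Psmc4 (-1.14, adjusted p = 9.74e-07) and Psmd7 (-1.05), and 16 members passed without the replicate block. In the naive sets it was larger in B cells for Psma1 (0.37), Psmc6 (0.41) and Psmd2 (0.36), and smaller for Psmc5 (-0.39), Psmd12 (-0.41) and Psmd14 (-0.39), where 9.03 and 14.7% of all genes were called higher and lower.

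Genes that work with the proteasome were followed from lists of the pathway. Over all genes, 16.5% were called lower with anti-Btla beads in EAE B and 19.7% in naive B cells. With anti-Btla beads, the core assembly chaperones fell in 5 of 5 cases in EAE B and 4 of 5 in naive B cells, where Pomp had -0.80 and Psmg1 -0.88. The 19S-bound genes Adrm1, Sem1, Uchl5 and Usp14, of which the last pair are deubiquitinases, fell in 4 of 4 cases in both sets. Of the activators and inhibitor 3 of 5 fell in EAE B and 4 of 5 in naive B cells, with Psme2, an IFN-inducible PA28 subunit, at -0.94 and Psme1 at -0.69 in naive B cells. Of ubiquitin, E1 and shuttle genes 7 of 12 fell in EAE B and 10 of 12 in naive B cells, with Vcp, the unfoldase p97, at -0.75 and -0.70. Nfe2l1, the Nrf1 gene, fell in both (-0.55 in each), while its relative Nfe2l2 rose (0.42 in each). Of the other genes listed with it, Ddi2 (-0.02 in each), Ngly1 (0.05 in each) and Mafk were called in neither set. Maff (-0.735) and Mafg (-0.30) were called lower in naive B cells but not in EAE B cells. In T cells edgeR called no gene of any list with anti-Btla, and the listed genes at an unadjusted p under 0.05 numbered 3 in EAE T and 7 in naive T cells. Over all genes, 1356 of 14561 and 1249 of 15137 met that p. DESeq2 called 1 listed gene lower, Usp14 in EAE T cells. With control Ig beads over unstimulated cells, all 5 chaperones rose in all sets, where 21.1 to 31.7% of all genes were called higher, with Psmg1 at 2.10 in EAE T cells, and Nfe2l1 rose in EAE T (0.44) and naive T cells (1.11, adjusted p = 5.07e-12). Between EAE T and naive T cells with control Ig beads, where most members were higher in EAE T cells, Nfe2l1 was lower (-0.80, edgeR adjusted p = 1.88e-05).

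The immunoproteasome genes were set beside the constitutive subunits whose places they take. With anti-Btla beads Psmb8 had a log2 change of -0.20 (adjusted p = 0.159) in EAE B and -0.40 (adjusted p = 0.000227) in naive B cells, and the 3 genes were called lower in 0 of 3 and 3 of 3 cases. Tested directly, the anti-Btla effect on the 3 genes did not differ detectably between EAE B and naive B cells. The differences were 0.19 for Psmb8, 0.28 for Psmb9 and 0.25 for Psmb10 (edgeR, unadjusted p = 0.156, 0.22 and 0.228). The TPM ratio of Psmb5 to Psmb8 was 0.86 ± 0.08, 1.34 ± 0.20 and 1.06 ± 0.07 in EAE B cells with anti-Btla, control Ig and no stimulation (SD, n = 3). In naive B cells it was 1.06 ± 0.04, 1.47 ± 0.25 and 1.08 ± 0.16. EAE T cells had 0.86 ± 0.07, 0.95 ± 0.10 and 0.48 ± 0.04, and naive T cells 1.19 ± 0.18, 1.19 ± 0.23 and 0.70 ± 0.05. The mean ratio was thus higher with control Ig beads than unstimulated in all sets, with no overlap in EAE B, EAE T and naive T cells. Psmb6 to Psmb9 was 2.15 ± 1.1 with control Ig in EAE B cells, where replicate 1 had 0.91 and the other libraries 2.99 and 2.56. In the unstimulated arms it was 1.71 in EAE B, 2.32 in naive B, 0.21 in EAE T and 0.52 in naive T cells. Psmb7 to Psmb10 reached 2.71 ± 0.69 with control Ig and 0.51 ± 0.04 unstimulated in EAE T cells. With anti-Btla beads it was 1.68 ± 0.23 there, and the libraries just overlapped (1.524 to 1.944, against 1.941 to 3.284 with control Ig). In naive T cells this ratio was 0.94 ± 0.12 with anti-Btla and 1.03 ± 0.24 with control Ig.

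Part of the estimated counts of these genes lay on transcripts annotated as retained introns, which are not expected to give the full protein. The members' share on such transcripts was 10.7% with anti-Btla, 7.8% with control Ig and 11.8% without stimulation in EAE B cells, and 11.7, 8.6 and 13% in naive B cells. EAE T cells had 6.7, 6.4 and 15.6%, and naive T cells 9.8, 9.4 and 14.8%. In the same arms, all other protein-coding genes had 10.9, 9.5 and 11.1% in EAE B, 11.7, 10.2 and 11.8% in naive B, 8.0, 8.1 and 11.2% in EAE T and 10.5, 10 and 11.5% in naive T cells. Of 24 members with such transcripts, 20 had a lower share without overlap with control Ig than unstimulated in EAE T cells (38.7% of other genes), and 16 in naive B cells (23.4%). In EAE B cells 14 did (19.3%), and in naive T cells 10 (22.5%). With anti-Btla against control Ig, the share was higher without overlap for 17 members in naive B (26.3%) and 10 in EAE B cells (11.4%). In naive T cells it was higher for 0 (7.49%), and in EAE T cells higher for 3 (3.77%) and lower for 1 (4.03%). Psmc2-202, a retained-intron transcript of Psmc2, held 37.6, 40.7 and 39.1% of the gene's counts in naive B anti-Btla libraries, 23.8, 25.8 and 29.2% with control Ig and 44.7, 36.7 and 43.0% unstimulated. In EAE T cells it held 20.7, 14.8 and 15.9% with control Ig and 49.7, 45.8 and 51.6% unstimulated. Counted on protein-coding transcripts alone, 34 members fell with anti-Btla in EAE B and 33 in naive B cells (medians -0.65 and -0.64).

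**Figure D5:**
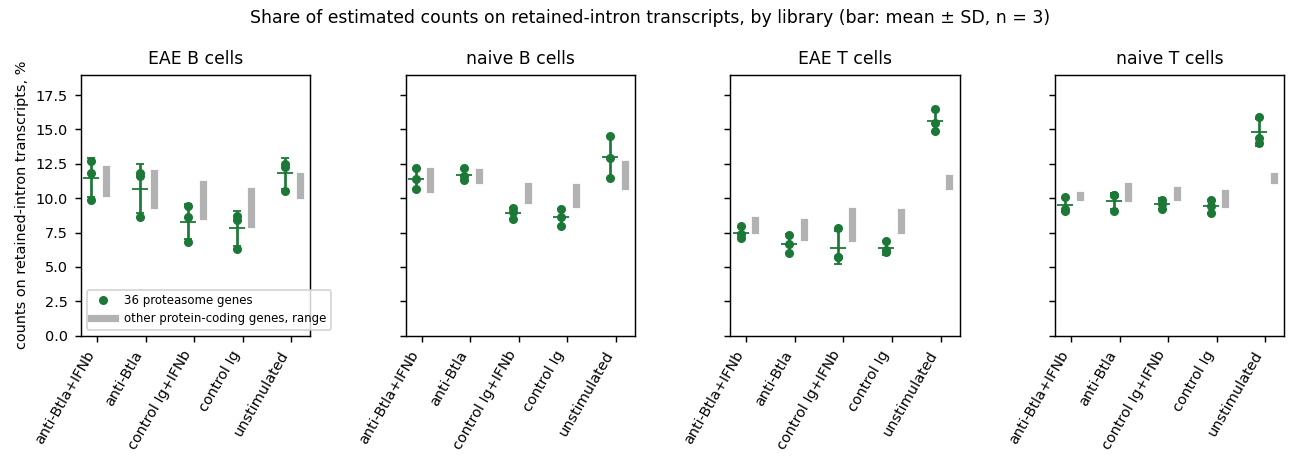
Share of estimated counts on transcripts annotated as retained introns, in percent, for the 36 proteasome genes (green points, one per library) and the range of all other protein-coding genes (grey bars), by arm within each set. The mean of the green points is highest in the unstimulated arm of each set (15.6% in EAE T cells), with overlap between libraries of the anti-Btla and unstimulated arms in B cells.

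Exons of 10 members overlap those of another gene, among them Psma5 with 1700010K24Rik on the opposite strand, and pseudogene copies exist for Psmb5, Psmb6 and Psmb7. Where library strand is not stated, reads from such overlaps cannot be told apart, so small changes in these genes are uncertain. Over the 20 groups, the genes outside the list whose mean log2 CPM most resembled the mean of the subunit genes were Erh (Pearson r = 0.991), Snrpb2 (0.987), Nme2 (0.986), Ppp2r1a (0.985) and Sf3a3 (0.983), among 8827 genes at 10 CPM or more. The points share libraries and depth, and r is a description only. Of the members, 10 stood in the first 100 of that order, but each subunit gene is part of the mean it was set against, which raises its place.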

How the data were processed

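RNA from purified B cells and CD4+ T cells was sequenced on a HiSeq 1500 and quantified with Salmon (version not given in the sources used here) by the authors, who deposited estimated counts and TPM per transcript (GRCm38) for 67 runs of 60 libraries. The expected counts deposited by the authors were summed over the 2 runs of 7 libraries and over the transcripts of each gene with the GENCODE M21 annotation, and rounded to whole numbers. The TPM deposited by the authors were used only for levels between genes. Transcripts with no gene in the annotation held 0.186 to 0.243% of counts in B and 0.442 to 0.708% in T libraries and were left out, and 0 columns of other samples were present. Salmon shares reads between overlapping transcripts by a model, so counts per transcript are estimates and the shares on retained introns depend on it.

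All genes past filterByExpr (minimum count 10) were fitted in edgeR 4.0.16 (R 4.3.3, limma 3.58.1) with TMM scaling and the quasi-likelihood F-test, each set of 15 libraries in its own fit with the replicate number as a block, because the study put replicate into its linear models. B was compared with T, and EAE with naive effects, in fits of both sets with a block within each set. EAE and naive libraries of the same arm were compared in fits of 6 libraries with no block. P-values were adjusted over all genes by Benjamini-Hochberg, and a gene was called at an adjusted p under 0.05. Errors of log2 changes are standard errors. CPM use the total of all gene counts. Same-numbered libraries deviated from their group means together in 25 of 30 pairs in naive B, 29 of 30 in EAE B, 30 of 30 in naive T and 30 of 30 in EAE T cells (correlation over 0.1). No 2 libraries of the same group agreed within sampling noise.

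The members and the lists of pathway genes, markers and motifs were chosen with earlier results of these data known. The text names the catalytic subunits, the 2 members with the largest rise or fall among called members at 10 CPM or more in the comparisons of beads, the 2 with the smallest p in each direction in the IFNb and EAE comparisons, every gene that is no subunit, and the pathway genes with the smallest p. Psma5 was followed in all sets, and other genes named were chosen after their values were seen. Alternatives were no or another block, DESeq2 1.42.0, DESeq2-type or no scaling factors, no filter, the compared groups alone, 1 library left out at a time, and, chosen after seeing the data, protein-coding transcripts alone and EAE B without libraries numbered 1. The code was tested on simulated data. Promoters came from RefSeq (GRCm38.p6).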

Additional observations from a re-analysis of the deposited data

Results flagged for a closer look

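These comparisons were singled out because an effect differed between cell types or between EAE and naive animals by a test of the difference itself. The anti-Btla effect differed between B and T cells for 28 members in the EAE sets and for 31 in the naive sets, all lower in B cells. Over all genes, 1243 of 16507 were called lower in the EAE sets and 1725 of 17946 in the naive sets. The effect of control Ig beads over unstimulated cells differed between B and T cells for 25 members in the EAE sets, all lower in B cells, and for 6 in the naive sets, with 3 in each direction. Over all genes, 3247 of 16507 were called lower in the EAE sets. In the naive sets 1621 of 17946 were called higher and 2634 lower, so the 6 members there did not exceed the share of all genes. The effect of control Ig beads also differed between EAE and naive T cells for 31 members, all higher in EAE T cells, where 3315 of 15966 genes were called higher. The cell types differed in stimulus (anti-IgM/G or anti-CD3) as well as in kind, and these cannot be told apart.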

How the results depend on the processing

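Each comparison was repeated under every alternative, and counts of called members are given where they moved by more than 1.5 times. With the replicate block in place (as reported), anti-Btla beads against unstimulated cells gave 6 members in EAE B and 9 in naive B cells. With no replicate block these were 0 and 2, with only the groups compared 0 and 3, and with single libraries left out 0 to 5 and 1 to 6, while EAE B gave 3 with library size only and 0 without libraries numbered 1. With no replicate block, the difference of the anti-Btla effect between B and T cells in the EAE sets fell to 3 members (18 to 28 with single libraries left out), and that of the control Ig bead effect to 16. The naive sets gave 10 in place of 6 on protein-coding transcripts. Unstimulated EAE against naive T cells gave 5 to 10 in place of 12 with single libraries left out. Anti-Btla + IFNb against control Ig + IFNb in EAE T cells gave 1 member with no filter on low counts and 0 to 1 with single libraries left out. The block changed no other count of members by this much.

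The summed level of the members with control Ig over unstimulated was 1.70 (TMM library sizes) and 1.47 times (TPM) in EAE B cells, against 1.62 in CPM, 1.66 and 1.49 in naive B cells (1.62), 2.90 (TPM) in EAE T cells (2.57), and 1.65 and 1.63 in naive T cells (1.58). Anti-Btla over control Ig was 0.627 (TMM) in EAE B cells (0.674), 0.851 (TPM) in EAE T cells (0.928) and 0.968 (TPM) in naive T cells (1.00). Single members that changed sign were all uncalled. Psmd5 with control Ig beads in naive T cells (-0.04) had 0.002 with no filter, 0.022 on protein-coding transcripts and -0.164 to 0.009 with single libraries left out. With anti-Btla in EAE T cells, Psmb5 (0.02) had -0.015 with library size only and -0.083 to 0.108 with single libraries left out, and Psmb6 (0.04) had -0.019 on protein-coding transcripts and -0.046 to 0.092. Also with single libraries left out, Psmb6 ran from -0.043 to 0.091 with anti-Btla in naive T cells, Psmd9 from -0.053 to 0.221 with control Ig beads in EAE T cells, Psmd12 from -0.023 to 0.071 and Psmc3 from -0.048 to 0.035 with IFNb in naive B and EAE B cells, and between EAE and naive cells Psma1 from -0.20 to 0.021 (unstimulated B), Psmb7 from -0.17 to 0.048 (control Ig B) and Psmb1 from -0.054 to 0.046 (control Ig T). The cause was not tested. With 3 libraries a group, changes smaller than a few SE were not detectable.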
